A study of Oryza sativa with 6 samples.

Results

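The arm of rice chromosome 3 from 1 to 15 Mb is described here by the peaks of 6 histone modifications. Its members are the peaks with a midpoint in this interval, which gave 3940 of the 82347 peaks of all lists and of the 9277 peaks on chromosome 3. They were compared with the 1980 peaks from 15 to 25 Mb of the same chromosome, and with the 3091 peaks from 25 Mb to the last peak where this adds to the picture. The rule used positions only, so numbers, widths, spacing and overlaps of the peaks were not used to choose them. Of the 3940 peaks, 1359 were H3K9ac, 1303 H3K4ac, 482 H3K27ac, 496 H3K27me3, 202 H3K9me1 and 98 H3K9me3. In the compared interval the same marks had 627, 603, 213, 313, 135 and 89 peaks.

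The study examined chromatin at promoters shared by neighbouring divergent genes in rice. Leaves of 2-week-old greenhouse-grown seedlings of the cultivar Nipponbare, a japonica rice, gave the nuclei for chromatin immunoprecipitation and sequencing (ChIP-seq), with an antibody against 1 modification for each library. No treatment, mutant or second cultivar was part of these samples, and all 6 libraries share cultivar, age, tissue and growth. Each mark had 1 library, so no spread between plants was measured and no test across samples could be made. A whole leaf holds several cell types, so a pair of marks on the same bases need not lie on the same nucleosome or in the same cell. A peak is a region that the authors' peak caller found enriched in reads, and its score is the value the caller gave it, with a lowest value of 50. The lists name no genome build and no depth. Positions are therefore those of the lists, and no gene or sequence was assigned to a peak. The 95% intervals below cover counting error only and treat peaks as independent, which neighbouring peaks may not be.

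In plants, acetylation of lysines 4, 9 and 27 of histone H3 is typically found at the starts of genes that can be transcribed. H3K27me3 is laid down by Polycomb group complexes over genes that are kept silent in a tissue and is reversible during development. Methylation of lysine 9 is linked to silenced repeats and transposable elements, with the mono- and dimethylated forms as its main forms in plants. Chromosome arms of rice are rich in genes, whereas the sequence around the centromeres is rich in repeats, and the interval used for comparison holds the centromere of chromosome 3 in published assemblies of Nipponbare.

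The arm was dense in all 3 acetylation marks. H3K9ac had 9.71 peaks per 100 kb (9.20 to 10.2) in the arm vs. 6.27 (5.79 to 6.78) from 15 to 25 Mb, a ratio of 1.55 (1.41 to 1.70). H3K4ac had 9.31 vs. 6.03, a ratio of 1.54 (1.4 to 1.70). H3K27ac, the sparsest of the 3, had 3.44 vs. 2.13, a ratio of 1.62 (1.37 to 1.91). All 3 ratios lay above 1 with their intervals. The densities over all chromosomes lay between those of the 2 intervals, at 7.15, 6.81 and 2.49 peaks per 100 kb for H3K9ac, H3K4ac and H3K27ac.

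The 3 methylation marks differed less between the intervals. H3K27me3 had 3.54 peaks per 100 kb in the arm vs. 3.13, a ratio of 1.13 (0.981 to 1.31). H3K9me1 had 1.44 vs. 1.35, a ratio of 1.07 (0.855 to 1.34). H3K9me3 was the only mark with fewer peaks per 100 kb in the arm, 0.70 vs. 0.89, a ratio of 0.787 (0.584 to 1.06). None of these 3 intervals excluded 1. For H3K27me3 this depended on where the compared interval ends: against 16 to 24 Mb its ratio was 1.38 (1.17 to 1.63), which lay above 1. The arm makes up 3.75% of the length from the first base to the last peak of the 12 chromosomes, and it held 5.09% of the H3K9ac, 5.12% of the H3K4ac and 5.18% of the H3K27ac list, but 3.83% of the H3K27me3, 4.04% of the H3K9me1 and 3.31% of the H3K9me3 list.

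The label of the arm as euchromatic could be checked only by these marks, since the lists hold neither expression nor DNA methylation. The arm had more acetylation than all chromosomes together, but so had the other end of the chromosome. Against the stretch from 25 Mb to the last peak, the density ratios were 1.04 (0.960 to 1.13) for H3K9ac, 1.03 (0.945 to 1.12) for H3K4ac and 1.01 (0.886 to 1.16) for H3K27ac. For H3K27me3, H3K9me1 and H3K9me3 they were 1.09, 1.07 and 0.998, and all 6 intervals included 1. A high density of acetylation peaks was thus not particular to this arm of chromosome 3.

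**Figure D1:**
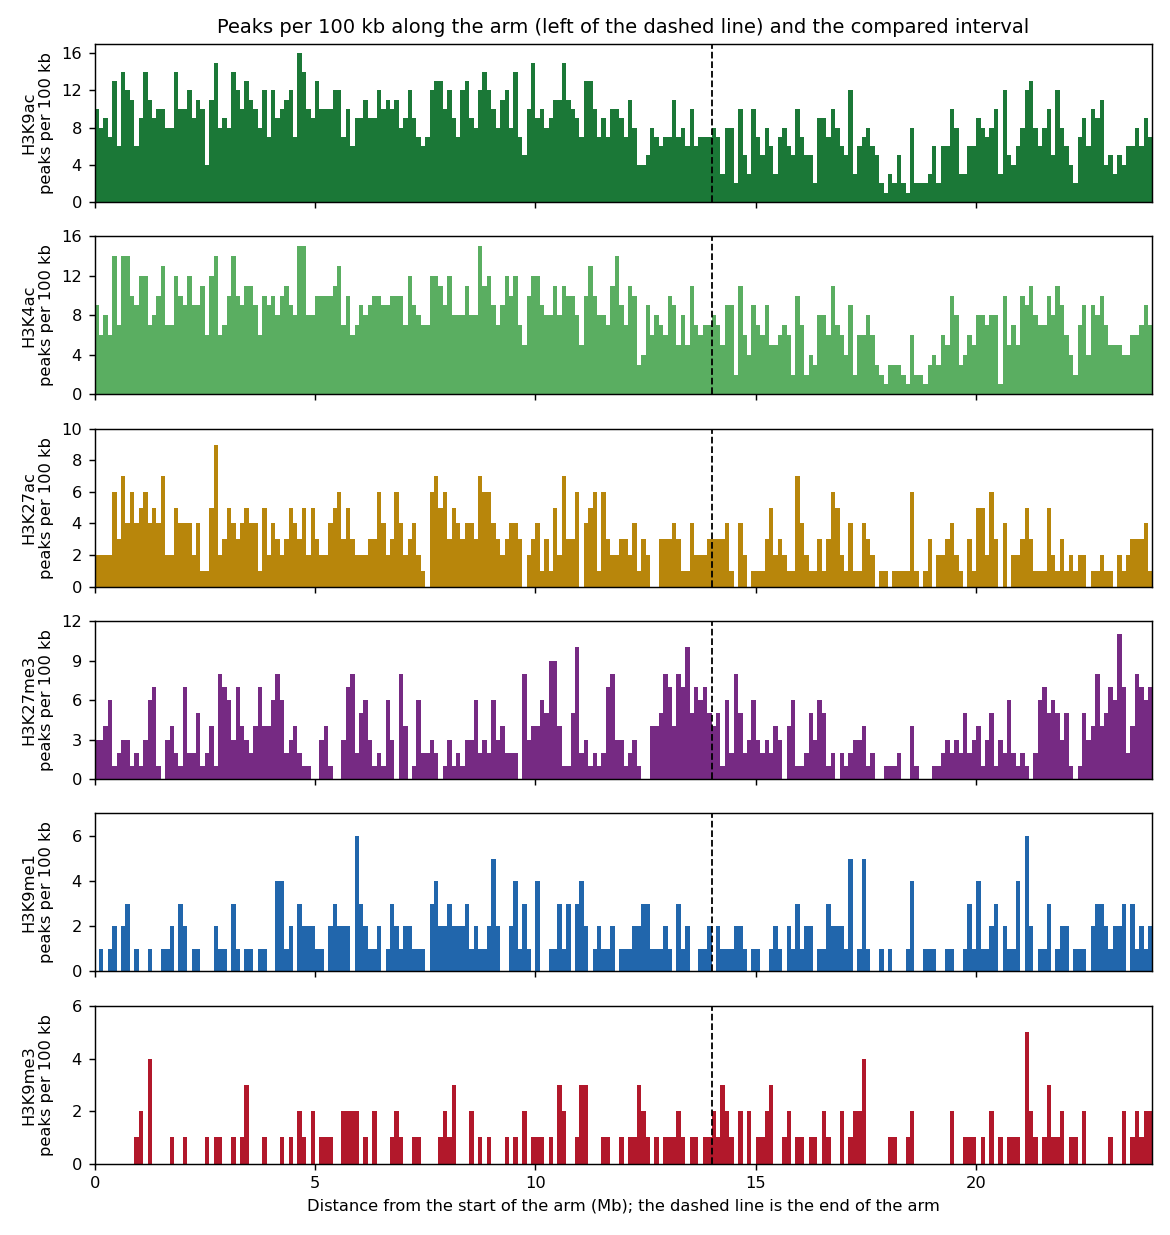
Number of peaks in each 100 kb bin (vertical axes, 1 panel for each mark) against the distance from the start of the arm in Mb; bars right of the dashed line belong to the compared interval. H3K9ac and H3K4ac peaks fill every bin of the arm, thin out in its last 2 Mb and are fewest in the compared interval, while H3K27me3 comes in clumps and H3K9me3 leaves 72 of the 140 bins of the arm without a peak.

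Along the arm, H3K9ac and H3K4ac were spread evenly. In the 12 windows of 1 Mb from 1 to 13 Mb, H3K9ac had 95 to 110 peaks (mean 101) and H3K4ac 93 to 102 (mean 96.4). The last 2 Mb of the arm stood apart. There H3K9ac fell to 67 peaks from 13 to 14 Mb and 76 from 14 to 15 Mb, and H3K4ac to 71 and 75. These numbers were near those just beyond the arm, where the 2 windows from 15 to 17 Mb had a mean of 64.5 H3K9ac and 66.5 H3K4ac peaks. H3K27ac followed, with 28 to 45 peaks per window from 1 to 13 Mb and 21 and 25 in the last 2 windows. The stretches of several windows named here were drawn after the counts per window had been seen, so their differences are a description with no test. Without the last 2 Mb, the density ratios to the compared interval were 1.62 for H3K9ac, 1.60 for H3K4ac and 1.71 for H3K27ac.

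The evenness also showed in bins of 100 kb. Every one of the 140 bins of the arm held at least 1 H3K9ac and 1 H3K4ac peak. The lowest, median and highest bins had 4, 10 and 16 H3K9ac peaks and 3, 9 and 15 H3K4ac peaks. The variance of the bin counts was divided by their mean. For points scattered at random this ratio is 1. For peaks it is lower, since they have a width and do not overlap within a list, and by how much was not tested. The ratio was 0.651 for H3K9ac and 0.615 for H3K4ac in the arm vs. 1.28 and 1.19 in the compared interval. H3K27ac was between these values, at 0.862 vs. 1.20. H3K27me3 was uneven in both intervals, at 1.76 vs. 1.75, and had 0, 3 and 10 peaks in its lowest, median and highest bin of the arm. H3K9me1 had a ratio of 1.02 and H3K9me3 of 1.10 in the arm, near the value of random scatter. Bins with no peak made up 5 of 140 for H3K27ac, 11 for H3K27me3, 34 for H3K9me1 and 72 for H3K9me3.

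H3K27me3, the Polycomb mark, had its highest and lowest windows in other places than acetylation. It was densest from 14 to 15 Mb with 66 peaks, followed by 11 to 12 Mb with 54, and sparsest from 8 to 9 Mb with 21. From 14 to 15 Mb its peaks covered 14.6% of the window, against 4.17% from 8 to 9 Mb.

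H3K9me1 was sparse at the outer end of the arm. It had 10, 8, 8 and 8 peaks in the 4 windows from 1 to 5 Mb, a mean of 8.5 per Mb (5.89 to 11.9). In the 8 windows from 5 to 13 Mb it had 14 to 20 peaks, a mean of 17.5 (14.7 to 20.7), and in the last 2 windows 17 and 11. No window of the first group reached the lowest of the second, but these groups were drawn after the counts per window had been seen. Peaks with a score of at least 100 followed the same order, with 0.5 per Mb (0.0606 to 1.81) from 1 to 5 Mb and 3.63 (2.43 to 5.21) from 5 to 13 Mb. H3K9me3 had 1 peak in the window from 1 to 2 Mb and 4 to 11 peaks in each of the other 13 windows. Over the same windows H3K9ac had a mean of 101 peaks per Mb from 1 to 5 Mb and 102 from 5 to 13 Mb.

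A higher density of acetylation in the arm was not detectable in the highest of 5 score groups, but it was at a score of at least 100. At that minimum score the density ratio was 1.48 (1.31 to 1.67) for H3K9ac and 1.498 (1.33 to 1.69) for H3K4ac. For H3K27ac it was 1.47 (1.101 to 1.97). Each list was split over all chromosomes into 5 groups of equal size by score. For H3K9ac the density ratio of the arm to the compared interval was 1.71, 1.67, 1.71 and 1.79 in the lower 4 groups, from the lowest scores up, and 1.0 (0.806 to 1.25) in the highest group. The 206 H3K9ac peaks of the highest group in the arm were 15.2% of its H3K9ac peaks, and the 147 in the compared interval were 23.4%. H3K4ac had ratios of 1.59, 1.64, 2.14 and 1.43 and then 1.09 (0.868 to 1.37). H3K27ac had 1.38, 2.04, 1.67 and 1.75 and then 1.28 (0.883 to 1.87), with intervals that overlap between the groups. For H3K9ac the interval of the highest group lay below those of the other 4. For H3K4ac it lay below that of the middle group and overlapped the others.

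The ranks of the scores moved with this. The median H3K9ac peak of the arm stood at the 46.4th percentile of scores in its list vs. the 51.5th for the compared interval, and H3K4ac and H3K27ac at the 46.7th and 46.5th vs. the 51.8th and 52.6th. The stretch from 25 Mb had medians at the 51.0th, 48.9th and 49.0th percentiles. H3K9me1 was ranked higher in the arm than in the compared interval, at the 56.4th vs. the 49.6th percentile, and H3K9me3 lower, at the 45.9th vs. the 55.9th. The stretch from 25 Mb had median percentiles of 57.4 for H3K9me1, near that of the arm, and 55.1 for H3K9me3. A score depends on depth, peak width and local background as well as on the mark, and the part of these in the result was not tested.

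**Figure D2:**
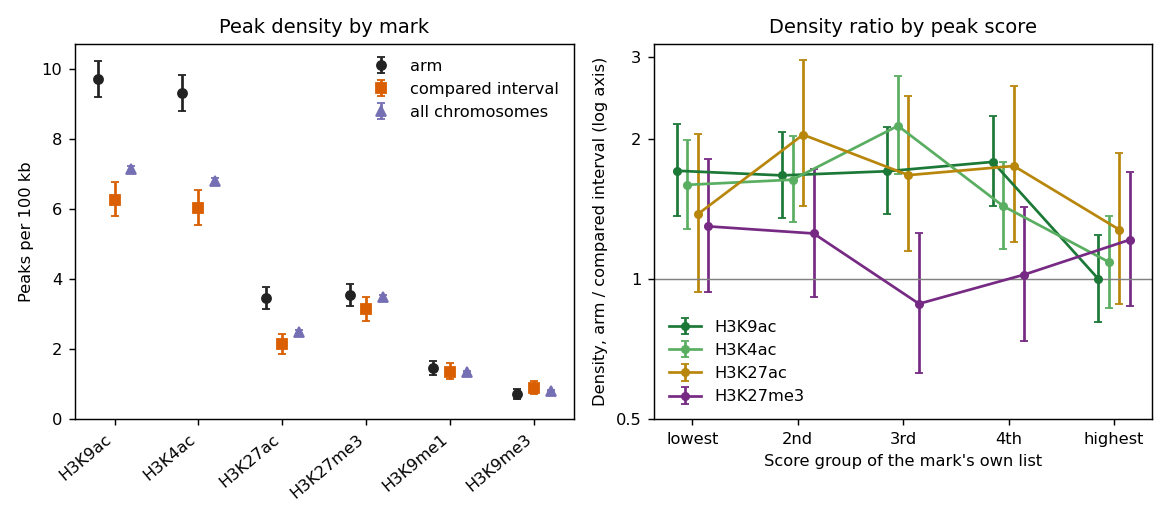
Left, peaks per 100 kb for each mark in the arm, the compared interval and all chromosomes, with 95% Poisson intervals. Right, the density in the arm divided by that in the compared interval (log axis, 95% intervals) for the 5 score groups of each list; for H3K9ac the ratio is 1.67 to 1.79 in the lower 4 groups and 1.0 in the highest.

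Spacing was measured as the gap from the end of a peak to the start of the next peak of the same mark. The median gap in the arm was 6.97 kb for H3K9ac (6.54 to 7.39) vs. 9.38 kb (8.62 to 10.4) in the compared interval. H3K4ac gaps had a median of 6.83 kb (6.38 to 7.27) vs. 9.76 kb, and H3K27ac gaps of 18.4 kb (15.9 to 20.9) vs. 28.2 kb (25.4 to 34.7). The intervals of the medians did not overlap for any of the 3 marks. From 25 Mb to the last peak the medians were 6.98, 6.42 and 19.7 kb, with intervals that overlap those of the arm. Close spacing of acetylation was thus not particular to the arm. H3K27me3 had 11.7 kb vs. 15.1 kb, H3K9me1 43.4 kb vs. 46.5 kb and H3K9me3 99.0 kb vs. 69.0 kb, and the intervals of these 3 overlapped.

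Long gaps in acetylation were rare in the arm. Of its 1358 H3K9ac gaps, 6 reached 50 kb, vs. 27 of 626 in the compared interval. For H3K4ac the numbers were 7 of 1302 vs. 22 of 602. The longest gap of the arm was 71.6 kb for H3K9ac and 71.3 kb for H3K4ac, and about 143 kb for each in the compared interval. The distances between midpoints of neighbouring H3K9ac peaks had a coefficient of variation (SD divided by mean) of 0.826 in the arm and 1.05 in the compared interval, and those of H3K4ac of 0.823 and 1.02. Randomly placed points would give a value near 1, and peaks, which have a width and do not overlap within a list, a lower one. H3K27me3 had 1.33 and 1.4, the highest of the 6 marks in both intervals, with many short and some very long gaps. Of its 495 gaps in the arm, 61 were under 1 kb and 72 reached 50 kb.

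Since H3K9ac and H3K4ac peaks mostly lie on each other, all overlapping acetylation peaks were also joined into sites. The arm had 1483 such sites, 10.6 per 100 kb, vs. 710 or 7.10 per 100 kb. The median gap between sites was 5.97 kb vs. 8.25 kb, and the coefficient of variation of their distances 0.794 vs. 1.04. The difference in spacing was therefore also present when each site was counted once.

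The acetylation peaks were also wider in the arm. The median H3K9ac peak was 945 bp (927 to 968) vs. 842 bp (815 to 873), the median H3K4ac peak 1221 bp (1196 to 1247) vs. 1138 bp (1111 to 1164), and the median H3K27ac peak 1079 bp (1047 to 1117) vs. 954 bp (906 to 983). Peaks of 2 kb or wider made up 5.30% of H3K9ac peaks vs. 1.44%, 10.8% of H3K4ac peaks vs. 4.15%, and 10.4% of H3K27ac peaks vs. 3.29%. The stretch from 25 Mb lay between these, with medians of 892, 1181 and 1010 bp. Within the highest score group H3K9ac peaks had a median of 1232 bp in the arm vs. 1054 bp, and within the lowest group 742 bp vs. 660 bp.

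For the methylation marks the intervals of the median widths overlapped. H3K27me3 had a median of 1560 bp vs. 1523 bp, with 36.3% and 36.4% of peaks of 2 kb or wider. H3K9me1, the narrowest mark, had 644 bp (602 to 679) vs. 673 bp (655 to 736). H3K9me3, the widest, had 2385 bp (1910 to 2839) vs. 2733 bp (2390 to 3085). With density and width together, H3K9ac covered 10.4% of the arm vs. 5.69% of the compared interval, H3K4ac 12.8% vs. 7.36% and H3K27ac 4.29% vs. 2.21%. H3K27me3 covered 6.94% vs. 6.23%, H3K9me1 1.02% vs. 1.11% and H3K9me3 1.90% vs. 2.59%.

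**Figure D3:**
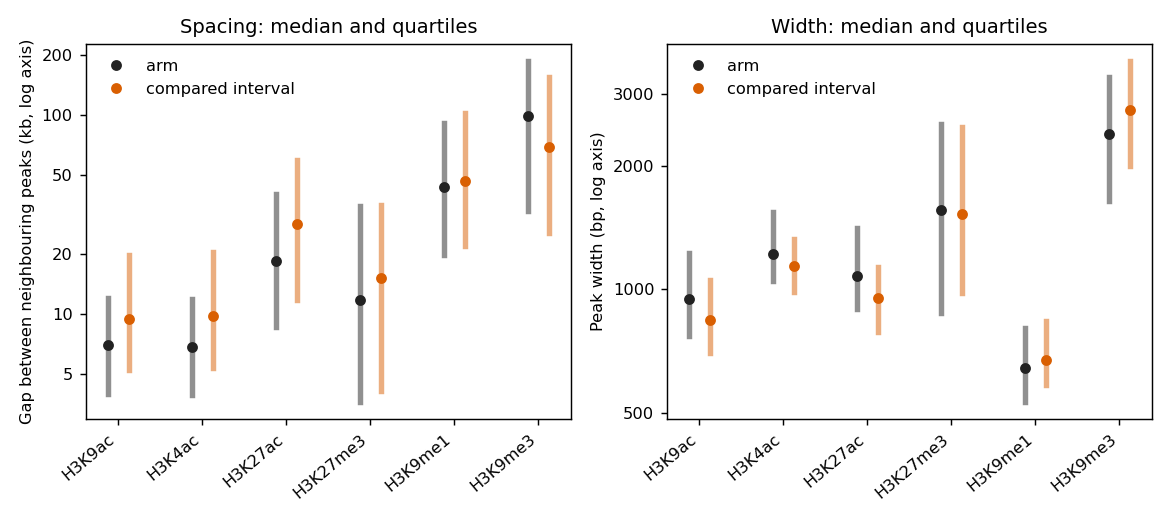
Median (points) and quartiles (bars) of the gap between neighbouring peaks of a mark in kb and of the peak width in bp, both on log axes, in the arm and the compared interval. Acetylation peaks of the arm sit closer together and are wider, with medians of 6.97 vs. 9.38 kb and 945 vs. 842 bp for H3K9ac.

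The acetylation marks lay on the same places. In the arm, 86.8% of H3K9ac peaks overlapped an H3K4ac peak by at least 1 bp, vs. 84.2% in the compared interval and 85.2% over all chromosomes. In the other direction, 88.3% of H3K4ac peaks overlapped H3K9ac vs. 86.1%, with 87.3% over all chromosomes. Nearly every H3K27ac peak of the arm was on another acetylation peak: 97.9% on H3K9ac vs. 95.8%, and 97.5% on H3K4ac vs. 95.3%, with 95.6% and 94.9% over all chromosomes. Of the H3K9ac peaks of the arm, 35.2% carried H3K27ac, vs. 32.5% in the compared interval and 33.8% over all chromosomes. All of these shares lay within 3 percentage points of the values over all chromosomes. Midpoints of overlapping H3K9ac and H3K4ac peaks were a median of 59.5 bp apart, and those of H3K9ac and H3K27ac peaks 86.0 bp.

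H3K9ac peaks with more partners were wider and had higher scores. The 173 H3K9ac peaks of the arm with neither H3K4ac nor H3K27ac had a median width of 764 bp and stood at the 14.4th percentile of scores. The 707 with H3K4ac alone had 896 bp at the 40.4th percentile, and the 473 with both had 1110 bp at the 74.6th. The other 6 had H3K27ac alone. The compared interval gave the same order, with 680, 813 and 970 bp. A wider peak is more likely to overlap another, and the part of width and score in this order was not tested.

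**Figure D4:**
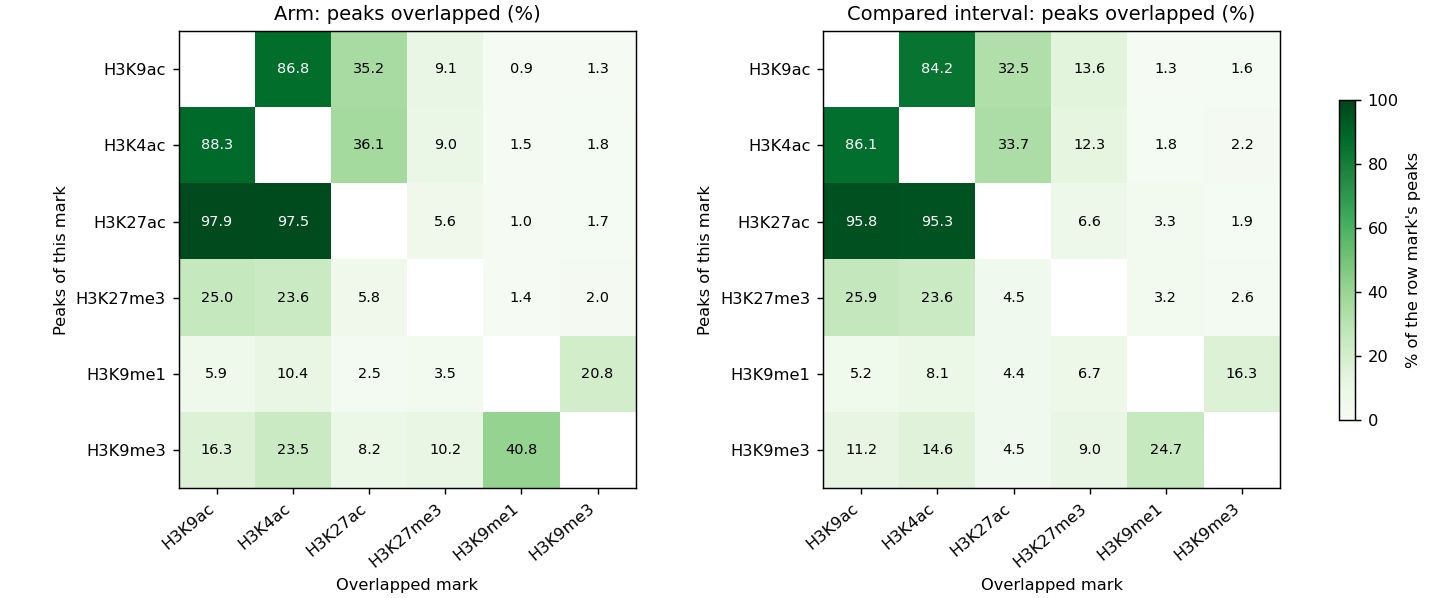
Share of the peaks of the mark in the row (%) that overlap a peak of the mark in the column by at least 1 bp, in the arm and the compared interval. The 3 acetylation marks form the dark block in both; H3K9me3 peaks on H3K9me1 are 40.8% in the arm vs. 24.7%.

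Of the H3K27me3 peaks of the arm, 25% overlapped H3K9ac vs. 25.9% in the compared interval, with 24.8% over all chromosomes. The shares were 23.6% in both intervals on H3K4ac, with 22% over all chromosomes. On H3K27ac they were 5.85% vs. 4.47%, with 6.08% over all chromosomes. From the side of acetylation the share was lower in the arm than in the compared interval for 2 of the 3 marks. Here 124 of 1359 H3K9ac peaks overlapped H3K27me3, 9.12% (7.71 to 10.8), vs. 85 of 627, 13.6% (11.1 to 16.5), with 12.3% over all chromosomes. The difference was -4.43 percentage points (-7.66 to -1.47). H3K4ac gave 8.98% (7.55 to 10.7) vs. 12.3% (9.89 to 15.1), a difference of -3.29 points (-6.49 to -0.38), with 11.2% over all chromosomes. H3K27ac gave 5.60% vs. 6.57%, a difference within the counting error, with 8.21% over all chromosomes. These shares also depend on density. The density ratios of the arm to the compared interval were 1.55, 1.54 and 1.62 for the 3 acetylation marks but 1.13 for H3K27me3. The part of density in the lower shares was not tested. The stretch from 25 Mb had shares of 7.80% of H3K9ac and 6.29% of H3K4ac peaks, so a low share was not particular to the arm. The arm minus this stretch gave 1.32 points (-0.942 to 3.53) for H3K9ac, within the counting error. For H3K4ac it gave 2.69 points (0.509 to 4.83). The share of H3K9ac peaks of the arm on H3K27me3 was 3.93% when all lists were limited to scores of at least 100. It was 0% at equal numbers of highest-scoring peaks. Both settings shorten the H3K27me3 list, which leaves fewer peaks to overlap by construction. The arm was not uniform in this. From 1 to 13 Mb, 8.22% (6.81 to 9.90) of H3K9ac peaks overlapped H3K27me3, and from 13 to 15 Mb 16.8% (11.5 to 23.8), where H3K27me3 had 47.0 peaks per Mb vs. 33.5 before. That mean joins unlike windows, with 28 H3K27me3 peaks from 13 to 14 Mb and 66 from 14 to 15 Mb.

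The 165 H3K27me3 peaks of the arm that touched an acetylation peak had a median width of 1833 bp (1592 to 2090), and the 331 others 1418 bp (1299 to 1560). In the compared interval the medians were 1653 bp (1408 to 2154) and 1474 bp (1277 to 1626), with intervals that overlap. A wider peak is more likely to touch another, and the part of this in the widths was not tested. For the H3K27me3 peaks that touched no acetylation peak, the median distance to the nearest one was 2.82 kb in the arm, and 37.8% were within 2 kb. In the compared interval the values were 3.72 kb and 30.5%. The median gap between acetylation sites was itself only 5.97 kb in the arm and 8.25 kb in the compared interval. Whether these H3K27me3 peaks lay closer to acetylation than other positions was not tested. Midpoints of overlapping H3K9ac and H3K27me3 peaks were a median of 384 bp apart, farther than those of a pair of acetylation marks.

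H3K27me3 peaks formed groups. With peaks less than 5 kb apart taken as a group, the 496 peaks of the arm fell into 338 groups, and 218 of these were single peaks. There were 7 groups of at least 4 peaks, which held 32 of the 496 peaks (6.45%). The compared interval had 3 such groups with 13 of 313 peaks (4.15%). These groups are few, and the difference was not tested. The largest group of the arm, at chr3:7938531-7978501, had 7 peaks over 40.0 kb, which they covered to 54.7%. In the same stretch lay 3 H3K9ac, 4 H3K4ac and 1 H3K27ac peaks. The next, at chr3:11931741-11949907, had 5 peaks over 18.2 kb. A group at chr3:2302457-2314563 had 4 peaks that covered 83.2% of its 12.1 kb.

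Across the bins of 100 kb of the arm, acetylation was lower where H3K27me3 was higher. The Spearman correlation of H3K4ac and H3K27me3 counts was -0.34 over the 140 bins of the arm (Pearson -0.34) and 0.26 over the 100 bins of the compared interval (Pearson 0.22). For H3K9ac and H3K27me3 it was -0.27 vs. 0.22, and for H3K27ac and H3K27me3 -0.30 vs. -0.07. The value for H3K4ac was -0.33 over the 120 bins from 1 to 13 Mb. Neighbouring bins share the same libraries and are not independent, so these values are a description, and their difference between the intervals was not tested. The 33 bins of the arm with 0 or 1 H3K27me3 peaks had a mean of 9.91 H3K4ac peaks (SD 2.64) and 4.21 H3K27ac peaks (SD 1.87). The 72 bins with 2 to 5 had 9.69 and 3.40, and the 35 bins with 6 or more had 7.94 (SD 1.76) and 2.80 (SD 1.41). In the compared interval the bins with 0 or 1 had the fewest H3K4ac peaks, a mean of 4.76, and the 18 bins with 6 or more had 6.28. H3K27ac was lowest in the bins with 6 or more there too, with a mean of 1.61 against 2.17 in those with 0 or 1 and 2.28 in those with 2 to 5.

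**Figure D5:**
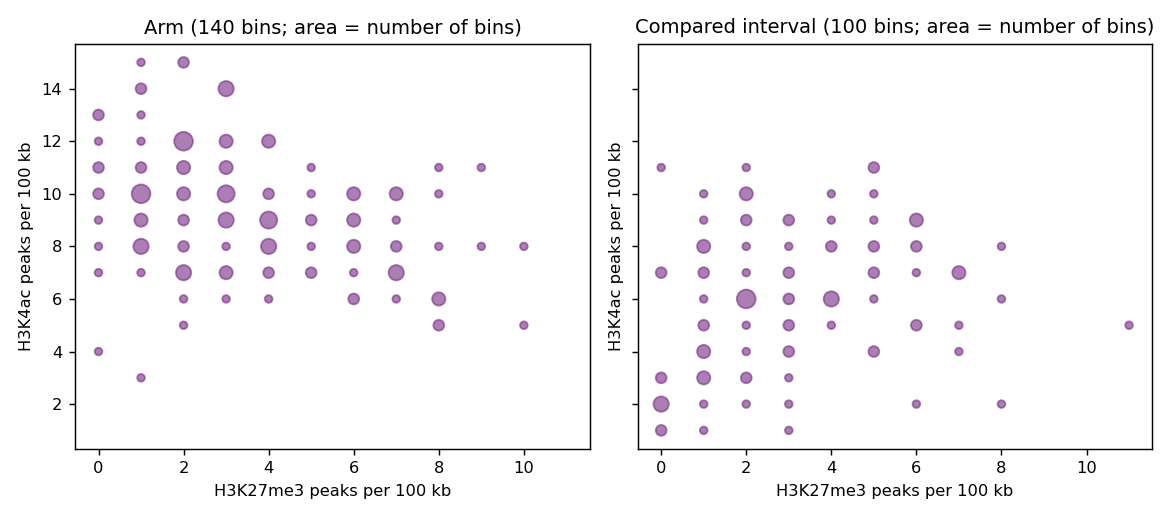
H3K4ac peaks against H3K27me3 peaks in bins of 100 kb (area of a point: number of bins) in the arm and the compared interval. Bins of the arm with 6 or more H3K27me3 peaks have 5 to 11 H3K4ac peaks, whereas bins with 0 or 1 have 3 to 15.

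The other pairs of marks varied along the arm as follows. H3K9ac and H3K4ac counts had a Spearman correlation of 0.80 over the bins of the arm vs. 0.91, and H3K9ac and H3K27ac of 0.55 vs. 0.59. H3K9ac and H3K9me1 had 0.07 in the arm vs. 0.41 in the compared interval.

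The marks on lysine 9 overlapped in part. Of the 98 H3K9me3 peaks of the arm, 40.8% (31.6 to 50.7) overlapped H3K9me1 vs. 24.7% (16.9 to 34.6) of 89 in the compared interval, with 32.3% over all chromosomes. The difference was 16.1 percentage points (2.59 to 28.7), larger than the counting error, but it rests on 40 and 22 peaks. From 25 Mb to the last peak the share was 42.5%, which differed from that of the arm by less than the counting error, so the higher share was not particular to the arm. Of the H3K9me1 peaks, 20.8% overlapped H3K9me3 vs. 16.3%, with 20.2% over all chromosomes. On H3K4ac lay 10.4% of the H3K9me1 peaks vs. 8.15%, with 9.66% over all chromosomes, and 23.5% of the H3K9me3 peaks vs. 14.6%, with 16.3% over all chromosomes. Both differences between the intervals were within the counting error. Many of these overlaps were short. With at least 50% of the shorter peak required, the shares in the arm were 5.45% of H3K9me1 and 9.18% of H3K9me3 peaks. At equal numbers of highest-scoring peaks the shares on H3K4ac were 1.47% and 3.06%. That setting cuts the H3K4ac list from 25425 to 2959 peaks, which leaves fewer peaks to overlap by construction. Of the H3K9me1 peaks of the arm, 145 of 202 (71.8%) overlapped neither H3K9me3 nor acetylation, vs. 101 of 135 (74.8%) in the compared interval. The 13 H3K9me3 peaks with both H3K9me1 and acetylation stood at the 82.0th percentile of scores of their list, the 27 with H3K9me1 alone at the 39.3rd, the 12 with acetylation alone at the 45.5th and the 46 with neither at the 44.7th. The order was another in the compared interval, where the 18 with H3K9me1 alone stood highest, at the 70.0th, and the 4 with both at the 62.8th.

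When all overlapping peaks of any mark were joined, the arm had 2019 places, or 144 per Mb, vs. 1070, or 107 per Mb. Places with acetylation only made up 63.6% (61.5 to 65.7) vs. 53.5% (50.5 to 56.4), and places with methylation only 26.7% (24.9 to 28.7) vs. 34.5% (31.7 to 37.4). Both kinds together were at 9.61% (8.40 to 10.97) vs. 12.1% (10.2 to 14.1). Per Mb, however, methylation-only places were about as frequent, 38.6 vs. 36.9, and places with acetylation only were not, 91.8 vs. 57.2. The most frequent set in the arm was H3K9ac with H3K4ac (598 places), followed by all 3 acetylation marks with no other (428), H3K27me3 alone (324), H3K9me1 alone (141), H3K9ac alone (130) and H3K4ac alone (120). Any mark covered 22.6% of the arm vs. 16.8%, any acetylation 14.4% vs. 8.30%, and any methylation 9.49% vs. 9.59%.

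All 6 marks covered the same bases at 2 places of the arm and at none of the compared interval. The first, chr3:11539638-11540230, is 593 bp long, and its H3K9me1 and H3K9me3 peaks were among the strongest of their lists, at rank 130 of 5002 and 47 of 2959. Its H3K9ac peak was at rank 16544 of 26693. The second, chr3:14034260-14034880, is 621 bp long, with ranks of 1387 and 2130 for H3K9me1 and H3K9me3. With 2 places in all, nothing can be said of a difference between the intervals.

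Several of the extreme places of the arm lay between 13 and 15 Mb. The longest stretch without acetylation, chr3:13388207-13459547, is 71.3 kb long and held 2 H3K9me3 peaks and no other mark. Inside it lay the longest stretch without any mark, chr3:13399981-13445430, of 45.5 kb. The widest H3K9me3 peak of the arm, 6987 bp at chr3:13373725-13380711, lay just before it. At its other end, the highest-scoring H3K9me1 peak of the arm (chr3:13459551-13461468, score 287.56, rank 39 in its list) and the highest-scoring H3K9me3 peak (chr3:13459552-13464647, score 256.9, rank 17) began 1 bp apart. Acetylation began again at the same place, with an H3K4ac peak directly after position 13459547 and an H3K9ac peak directly after 13459683. Both H3K9 methylation peaks thus overlapped H3K4ac and H3K9ac peaks. The longest H3K27me3 gap, 347 kb at chr3:13320272-13666848, spans all of these, and the longest H3K27ac gap, 230 kb at chr3:13577199-13807658, begins inside it.

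The second longest stretch without acetylation was of another kind. It measured 61.1 kb at chr3:14776724-14837826 and held 7 H3K27me3 peaks and no H3K9 methylation. The third, 54.2 kb at chr3:13880040-13934278, held 3 H3K27me3 peaks and 1 H3K9me1 peak. The widest H3K27me3 peak of the arm, 7976 bp, was at chr3:14341549-14349524. The arm had 4 stretches of 50 kb or longer without acetylation, 237 kb in all, vs. 18 with 1382 kb in the shorter compared interval. Without any mark there was no stretch of 50 kb or longer in the arm, vs. 10 with 767 kb.

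The extremes of acetylation lay elsewhere. The densest bin was the same for H3K9ac (16 peaks) and H3K4ac (15 peaks, tied with 2 other bins), chr3:5600001-5700000. The densest H3K27ac bin, with 9 peaks, was chr3:3700001-3800000. The widest H3K9ac peak (5593 bp, chr3:2962548-2968140) and the widest H3K4ac peak (5703 bp, chr3:2962535-2968237) were at the same place. The highest scores were not, with H3K9ac at chr3:9117454-9118687 (732.49, rank 62), H3K4ac at chr3:1803527-1805432 (921.68, rank 48) and H3K27ac at chr3:6753973-6756063 (364.86, rank 22). The widest H3K27ac peak, 4061 bp, was at chr3:11768838-11772898. For methylation, the highest-scoring H3K27me3 peak was at chr3:3388061-3391180 (1445.66, rank 10 of 12959), its densest bin with 10 peaks at chr3:11900001-12000000 (tied with 1 other), the densest H3K9me1 bin with 6 peaks at chr3:6900001-7000000 and the densest H3K9me3 bin with 4 peaks at chr3:2200001-2300000. The longest H3K9me1 gap was 390 kb at chr3:3319214-3709239, in the outer part where this mark was sparse, and the longest H3K9me3 gap 560 kb at chr3:8318023-8878361. The widest H3K9me1 peak, 3034 bp, was at chr3:13539330-13542363.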

How the data were processed

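Each of the 6 libraries (1 per mark) came as a peak list. The authors aligned the reads with Bowtie, per the submitters' processing notes, and called peaks with MACS 1.4, per the file names. The study names release 7 of the rice annotation for its gene pairs and expression data. For the ChIP-seq lists, the build, version of Bowtie, settings, control and read depth are not given in the sources used here. The deposited score of each peak was used as the authors' caller gave it, for ranks within a list and for a minimum of 100. Deposited positions count from 0, and 1 was added to starts.

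Peaks were placed by midpoint, counted in 100 kb bins and 1 Mb windows, and overlapped by at least 1 bp. Intervals at 95% are exact Poisson for densities, exact conditional binomial for density ratios, Wilson for shares, Newcombe for differences of shares and order statistics for medians. No test across samples was run. Places were named by rule: for each mark the densest bin, longest gap, widest and highest-scoring peak, and the windows with most and fewest peaks. Regions with all 6 marks, and the 3 longest stretches without acetylation or any mark, were added. Members, lists and rules were chosen with earlier results of these data known. The functions were tested on simulated peaks. Alternatives are given in the closing section. Python 3.11.15, numpy 2.4.6, scipy 1.17.1 and matplotlib 3.10.9 were used.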

Additional observations from a re-analysis of the deposited data

How the results depend on the processing

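Merging peaks closer than 200 bp, an arm from 2 to 14 Mb, peaks wholly inside the interval, and an arm from 1 to 13 Mb (added after seeing the data, for density and coverage) left the densities, gaps, widths and overlaps recomputed under them within their intervals. The number of places with all 3 acetylation marks was 403 in the shorter arm from 2 to 14 Mb. With the 2959 highest-scoring peaks of each list, the density ratio turned to 0.996 for H3K9ac and 0.949 for H3K4ac. For H3K27ac it was 1.35 (0.999 to 1.85). It was 1.38 (1.17 to 1.63) for H3K27me3 with a compared interval of 16 to 24 Mb, and 1.51 for H3K9me1 at a score of at least 100. Both score settings shorten the lists by construction, which lengthens gaps, keeps wider peaks and leaves fewer peaks to overlap. For H3K9ac, H3K4ac, H3K27ac, H3K27me3 and H3K9me1, median gaps were 10.96, 9.86, 59.9, 19.7 and 185 kb at a score of at least 100 and 84.3, 86.9, 69.8, 74.3 and 57.6 kb at equal numbers; median widths were 1046, 1301, 1421, 1828 and 855 bp, and 1404, 1555, 1482, 2680 and 712 bp. At equal numbers and at a score of at least 100, H3K9ac peaks on H3K4ac were 75.5% and 89.3%, H3K27me3 peaks on H3K9ac 0% and 8.89%, and places with all 3 acetylation marks 54 and 144. H3K27ac peaks on H3K9ac were 52.0% at equal numbers, and H3K9me3 peaks on H3K9me1 80.0% at a score of at least 100, of 5 peaks. For H3K9me3 that setting left too few peaks for a median gap or width. Requiring 50% of the shorter peak lowered H3K9me1 and H3K9me3 peaks on H3K4ac to 5.45% and 9.18%. Other causes were not tested. No paired analysis was possible because each mark has 1 library, and no replicate could be left out. Depth is unknown, which limits any comparison between marks.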
